A study of Mus musculus with 6 samples.

Results

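The genes described here are 34 mouse genes of homologous recombination and of the Fanconi anaemia pathway, taken by symbol from a deposited expression survey of 22558 gene names. Homologous recombination repairs broken DNA by copying the sister chromatid, so it works mainly in cells that have replicated their DNA. Broken ends are cut back to single strands with the help of Brca1, the strands are coated by replication protein A (RPA), and Brca2 and Palb2 then help the strands to invade the intact copy. The Fanconi anaemia proteins unhook crosslinked DNA strands and feed the resulting breaks into the same route. Pluripotent cells divide rapidly with a short G1 phase and express most of these genes. Messenger RNA was measured in 6 cultures, 1 library each, all at passage 25.

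The first pair was embryonic stem cells (ESC) of 129Sv background derived from embryos. One culture was an H2A.X knockout made with Cre, and the other carried Flox/Flox alleles of the same gene. H2A.X is a variant of histone H2A that cells phosphorylate in the chromatin flanking a DNA break. The other 4 cultures were induced pluripotent stem cells (iPSC) of a 129Sv/C57 mix, titled as H2AX iPSC with no further genotype. They were 4N- and 4N+ lines reprogrammed from peritoneal fibroblasts (PF), and 4N- and 4N+ lines reprogrammed from tail tip fibroblasts (TTF). The labels do not explain 4N; from general knowledge it was read as failure or success in tetraploid complementation, in which injected cells must build the entire embryo. All cultures grew on feeder cells with LIF and were moved onto gelatin before RNA extraction. Each condition is 1 line or culture per table, so a comparison within a table cannot separate its label from the line. No p-value was computed for it here, and the authors' deposited q-values and calls, quoted below, also rest on 1 library per condition. The tables may have been scaled separately, and every comparison of levels across tables below carries that limit.

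H2afx, which encodes H2A.X, stood at 6.18 FPKM (a fragment count corrected for the length of the gene and the depth of its library) in knockout ESC, against 34.9 FPKM in Flox/Flox ESC, and between 65.3 and 75.2 FPKM in the 4 iPSC. Effective depth lay between 38600000 and 59300000 fragments per library, so 1 FPKM on 1 kilobase stood for 38.6 to 59.3 fragments. The knockout library stood apart from the other 5 in its markers. A list of 21 trophoblast genes summed to 1788 FPKM in knockout ESC, against 141 FPKM in Flox/Flox ESC and between 68.8 and 161 FPKM in the iPSC, with Prl3d1 listed at 0 in both ESC libraries. Of the 16 trophoblast genes measured in the ESC pair 14 were higher in knockout ESC, and 2, Eomes and Ascl2, were lower. A list of 21 pluripotency genes summed to 1684 FPKM in knockout ESC and 3138 FPKM in Flox/Flox ESC. Of these 21, 20 were lower in knockout ESC, though Nanog was nearly equal at 111 FPKM in both. Lists of extraembryonic endoderm and fibroblast genes summed to 715 and 338 FPKM in knockout ESC, against 325 and 109 FPKM in Flox/Flox ESC. Of their measured genes, 8 of 9 and 10 of 10 were higher in knockout ESC. In such bulk RNA, fewer cells of a type and less RNA per cell cannot be told apart.

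All 34 genes were found in all 3 tables and reached 1 FPKM in all 6 libraries. They covered a wide range of abundance. Between the ends of that range, 23 genes stayed at or above 5 FPKM in all 6 libraries, 6 stayed above 20 FPKM, and 5 stayed under 5 FPKM. The RPA subunits Rpa1, Rpa3 and Rpa2 were the most abundant, and Fancf and Rmi1 the least. Fancf, an adaptor of the Fanconi core complex, is intronless and its locus spans 1689 bases. Its fragments could thus be estimated from FPKM and the effective depth, rounded to whole numbers. It had about 94 fragments in knockout ESC (exact Poisson 95% interval 76.0 to 115, counting error only) and 217 in Flox/Flox ESC (189 to 248). In the iPSC the PF lines gave 141 (4N-) and 152 (4N+) fragments and the TTF lines 264 (4N-) and 304 (4N+). The knockout and Flox/Flox intervals, 1.32 to 2.004 FPKM and 2.57 to 3.36 FPKM, cover counting error in these libraries and not the spread between cultures.

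**Figure D1:**
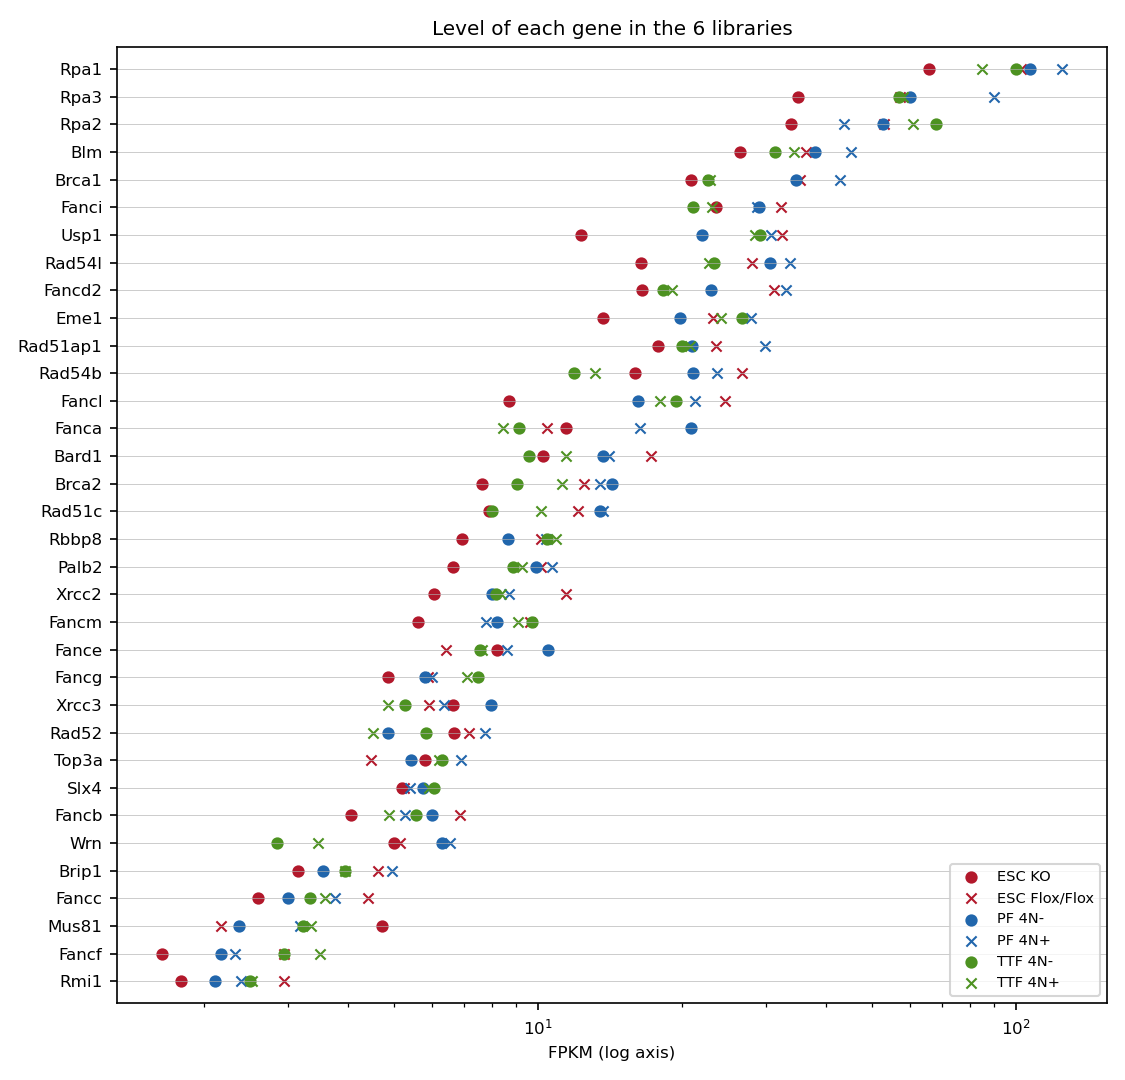
FPKM (log axis) of each of the 34 genes, one row per gene ordered by mean level, with 1 point per library: circles for knockout or 4N- libraries and crosses for Flox/Flox or 4N+ libraries, coloured by table. The knockout ESC circle is the lowest of the 6 points for 24 genes and the highest for 1, Mus81, and levels across tables carry the limit that the tables may have been scaled separately.

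Promoter windows of 27 of the 34 genes were matched in RefSeq (GRCm38.p6, from 250 bases before to 50 after a transcript start), 30 windows in all. Usp1, Fancd2, Xrcc2, Rad54b, Rbbp8, Top3a and Wrn are named only. E2F factors, which drive transcription at the entry into S phase, bind sites close to the string TTCCCGC and its variants TTGGCGC and also TTCGCGC and likewise TTGCCGC. A match to 1 of those 4 strings on either strand was present in 18 of the 30 windows (60%, belonging to 16 genes), against 9.57% of 32851 windows of the same length over all genes. The windows of these genes were also richer in CpG, a dinucleotide that all 4 strings contain, with a median of 23.5 CpG each against 7 over all windows. Among windows with at least 20 CpG the shares were 13 of 19 (68.4%) and 22.5% of 8701. The string CCAAT occurred in 66.7% of the genes' windows and 37.4% of all windows, and TTTGAA, the core of the cell cycle homology region, in 6.67% and 17.9%. These matches describe letters and not bound sites. The first 3 windows below are shown because they hold a match and belong to the genes with the largest knockout decrease among those with a match in a single window; Fancl and Mus81 are shown because they were the lowest and the highest gene with a window in the ESC comparison, and neither holds a match. Capitals mark the match.
Brca1, chr11:101551906-101552205, minus strand: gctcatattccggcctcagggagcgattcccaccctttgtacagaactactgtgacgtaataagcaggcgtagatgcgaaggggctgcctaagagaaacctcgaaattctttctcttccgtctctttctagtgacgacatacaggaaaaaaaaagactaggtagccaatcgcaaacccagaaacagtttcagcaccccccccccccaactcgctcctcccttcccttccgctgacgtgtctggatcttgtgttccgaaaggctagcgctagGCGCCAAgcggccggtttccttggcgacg
Bard1, chr1:71102923-71103222, minus strand: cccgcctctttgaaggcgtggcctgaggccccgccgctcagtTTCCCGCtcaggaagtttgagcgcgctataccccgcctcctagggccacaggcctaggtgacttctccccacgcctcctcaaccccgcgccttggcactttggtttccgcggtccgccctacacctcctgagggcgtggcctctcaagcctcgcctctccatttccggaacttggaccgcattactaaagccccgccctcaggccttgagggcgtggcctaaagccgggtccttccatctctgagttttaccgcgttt
Rpa3, chr6:8259092-8259391, minus strand: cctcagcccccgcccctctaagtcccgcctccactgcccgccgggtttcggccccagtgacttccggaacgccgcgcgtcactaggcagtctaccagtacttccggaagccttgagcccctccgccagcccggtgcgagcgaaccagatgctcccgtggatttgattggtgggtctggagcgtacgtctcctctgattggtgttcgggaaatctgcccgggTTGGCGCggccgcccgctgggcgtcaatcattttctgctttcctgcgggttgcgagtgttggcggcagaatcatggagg
Fancl, chr11:26386834-26387133, plus strand: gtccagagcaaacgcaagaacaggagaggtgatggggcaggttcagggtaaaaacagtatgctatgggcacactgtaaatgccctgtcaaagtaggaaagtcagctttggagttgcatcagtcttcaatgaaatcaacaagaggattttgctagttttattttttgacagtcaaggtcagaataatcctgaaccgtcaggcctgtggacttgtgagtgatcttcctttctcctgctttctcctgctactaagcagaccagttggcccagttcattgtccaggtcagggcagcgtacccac
Mus81, chr19:5488330-5488629, minus strand: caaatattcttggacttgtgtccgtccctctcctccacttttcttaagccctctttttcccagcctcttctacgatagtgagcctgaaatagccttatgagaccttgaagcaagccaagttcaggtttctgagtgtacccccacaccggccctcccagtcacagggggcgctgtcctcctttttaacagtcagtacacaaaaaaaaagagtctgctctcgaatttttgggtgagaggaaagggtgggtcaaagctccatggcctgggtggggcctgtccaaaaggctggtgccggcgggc
The match begins at base 22 counted from the start in Brca1, at base -208 in Bard1 and at base -29 in Rpa3.

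Loss of H2A.X was examined first. In knockout ESC, 29 of the 34 genes (85.3%) were lower than in Flox/Flox ESC, while 51.7% of the 12086 genes at 1 FPKM or more in either library were lower. The median log2 ratio of the genes, on the log2(FPKM + 1) scale used throughout, was -0.57, against -0.03 for all genes. A decrease of at least 1.5-fold was found for 16 of the 34 and for 15.9% of all genes. An increase of that size was found for 1 of the 34, Mus81, and for 17.8% of all genes. At least 2-fold, Fancl and Usp1 were lower (3.72% of all genes) and none of the 34 was higher (7.49% of all genes). Mus81 became 1 gene at least 2-fold higher with a pseudocount of 0.1 FPKM and with centring on the median of all genes or of its chromosome. The 4 largest decreases were those of Fancl, Usp1, Fancd2 and Xrcc2.

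Abundant genes were lower more often in this pair, and most of the genes are abundant. Among genes with a mean of at least 5 FPKM, 62.8% were lower in knockout ESC, against 25 of the 29 genes described here that pass that level. A decrease of at least 1.5-fold was found for 21.7% and for 15 of 29. The median of all 7692 genes at this level was -0.19, and that of the 29 was -0.63. When the pair was centred on that -0.19 shift, 26 of the 34 remained on the lower side with a median of -0.39, but only 4 were at least 1.5-fold lower (Fancl, Usp1, Fancd2 and Xrcc2), against 8.55% of all genes. Over all genes at least 2-fold different, the share that was higher moved to 86.6% with that centring, against 66.8% without it. The authors' deposited table called 1.44% of the genes they tested in this pair and 0 of the 34. Among the 34, the lowest q in that table belonged to Usp1 (q = 0.31).

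**Figure D2:**
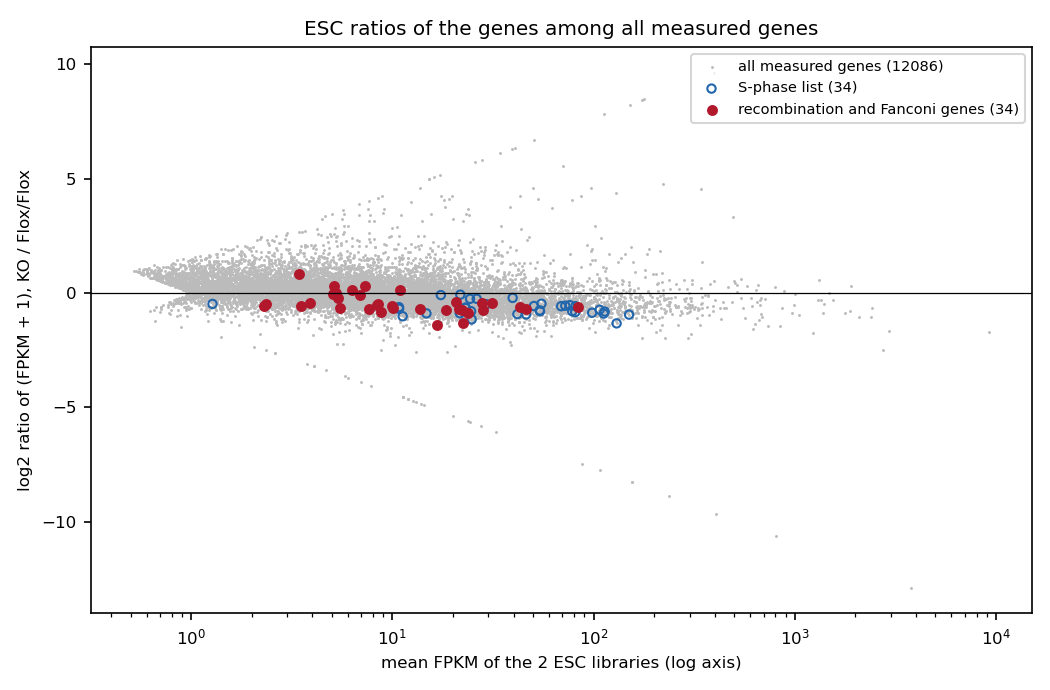
Log2 ratio of (FPKM + 1), knockout over Flox/Flox ESC, against the mean FPKM of both libraries (log axis). Grey points are all 12086 measured genes, red points the 34 recombination and Fanconi genes, and blue circles 34 S-phase genes; most red points and all blue circles lie below 0.

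Among the genes that act at the broken end, all 6 of the BRCA and resection group were lower in knockout ESC, between -0.73 and -0.44. Brca1 encodes a ubiquitin ligase subunit needed for resection and had 20.9 FPKM in knockout ESC, against 35.4 FPKM in Flox/Flox ESC. In the iPSC Brca1 had 34.7 FPKM in the 4N- PF line, 42.9 FPKM in the 4N+ PF line, 22.7 FPKM in the 4N- TTF line and 22.9 FPKM in the 4N+ TTF line. Its partner Bard1 had 10.3 FPKM in knockout ESC, against 17.3 FPKM in Flox/Flox ESC. Brca2, a mediator of strand invasion, had 7.65 FPKM in knockout ESC, against 12.5 FPKM in Flox/Flox ESC. Each of these 3 genes was lower in the knockout by a factor between 1.63 and 1.69. Palb2, which links Brca1 to Brca2, the resection factor Rbbp8 (CtIP) and the helicase Brip1 had smaller ratios of -0.54, -0.49 and -0.44.

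The 3 subunits of RPA, the complex that coats single-stranded DNA, had nearly equal ratios. Rpa1 had 65.6 FPKM in knockout ESC, against 102 FPKM in Flox/Flox ESC. Rpa2 had 33.8 FPKM in knockout ESC, against 52.8 FPKM in Flox/Flox ESC. Rpa3 had 35.04 FPKM in knockout ESC, against 57.3 FPKM in Flox/Flox ESC. The ratios lay between -0.69 and -0.63, and knockout ESC had the lowest level of all 6 libraries for all 3.

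The strand exchange group was mixed. Xrcc2, which assists strand exchange, had 6.07 FPKM in knockout ESC, against 11.4 FPKM in Flox/Flox ESC. In the iPSC it varied little, with 7.998 FPKM (4N-) and 8.71 FPKM (4N+) in the PF lines, and 8.18 FPKM (4N-) and 8.35 FPKM (4N+) in the TTF lines. The translocases Rad54l and Rad54b, which act on duplex DNA during strand exchange, had ratios of -0.74 and -0.71, and Rad51c, which also assists strand exchange, -0.56. Rad51ap1, which stimulates joint formation, was at -0.39, and Rad52, which anneals single strands, at -0.09. Xrcc3, which pairs with Rad51c, had 6.64 FPKM in knockout ESC, against 5.91 FPKM in Flox/Flox ESC, a ratio of 0.15.

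The Fanconi core complex is the ubiquitin ligase that marks Fancd2 and Fanci. Its 8 genes here spread more widely than any other group, between -1.40 and 0.31. Fancl, the catalytic subunit (locus shared with Vrk2 on chromosome 11, 26287084 to 26493920 on mm9), had 8.68 FPKM in knockout ESC, against 24.6 FPKM in Flox/Flox ESC. Its iPSC levels were 16.2 FPKM in the 4N- PF line, against 21.3 FPKM in the 4N+ PF line, and 19.5 FPKM in the 4N- TTF line, against 17.98 FPKM in the 4N+ TTF line. The knockout level of Fancl was thus 35.4% of the Flox/Flox level and below every iPSC library. Fancm, which binds branched DNA, Fancb, Fancc and Fancf followed at -0.69, -0.64, -0.59 and -0.58, and Fancg at -0.23. Fance, which contacts Fancd2, had 8.22 FPKM in knockout ESC, against 6.42 FPKM in Flox/Flox ESC (ratio 0.31), and Fanca was at 0.12. The core subunits were therefore on both sides of 0.

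The substrates of that ligase and its antagonist were all lower. Usp1, the protease that removes ubiquitin from Fancd2 (chromosome 4, 98590501 to 98602224 on mm9), had 12.3 FPKM in knockout ESC, against 32.4 FPKM in Flox/Flox ESC. It had 21.98 FPKM in the 4N- PF line, 30.7 FPKM in the 4N+ PF line, 29.1 FPKM in the 4N- TTF line and 28.4 FPKM in the 4N+ TTF line. The Usp1 ratio in the ESC pair was -1.33, a knockout level 37.9% of the Flox/Flox level. Fancd2 (chromosome 6, 113481676 to 113546279 on mm9) had 16.5 FPKM in knockout ESC, against 31.2 FPKM in Flox/Flox ESC. It had 23.0 FPKM (4N-) and 33.0 FPKM (4N+) in the PF lines, and 18.3 FPKM (4N-) and 19.1 FPKM (4N+) in the TTF lines. Flox/Flox ESC and the 4N+ PF line were the high libraries for Fancd2, and the other 4 lay lower. Fanci, its partner, had a smaller ratio of -0.43.

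Late intermediates are either dissolved by Blm, Top3a and Rmi1 or cut by nucleases. Blm, the helicase of the dissolution complex, and Rmi1, its scaffold, were lower at -0.45 and -0.50, and the related helicase Wrn was at -0.04. Top3a, the topoisomerase of that complex, had 5.81 FPKM in knockout ESC, against 4.47 FPKM in Flox/Flox ESC. The 4N- and 4N+ PF lines had 5.43 and 6.90 FPKM of Top3a, while its TTF levels were 6.31 FPKM (4N-) and 6.21 FPKM (4N+). Mus81 and Eme1 encode the subunits of 1 junction nuclease and had ratios of opposite sign. Mus81 (chromosome 19, 5482840 to 5488336 on mm9) had 4.72 FPKM in knockout ESC, against 2.18 FPKM in Flox/Flox ESC. It had 2.37 FPKM in the 4N- PF line, 3.19 FPKM in the 4N+ PF line, 3.23 FPKM in the 4N- TTF line and 3.35 FPKM in the 4N+ TTF line. Knockout ESC was the highest of the 6 libraries for Mus81 and Flox/Flox ESC the lowest. The FPKM ratio was 2.17, and the log2 ratio on the (FPKM + 1) scale 0.85. Eme1, whose locus is shared with Lrrc59, had 13.7 FPKM in knockout ESC, against 23.3 FPKM in Flox/Flox ESC. Slx4, a scaffold for several nucleases, was at -0.01.

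**Figure D3:**
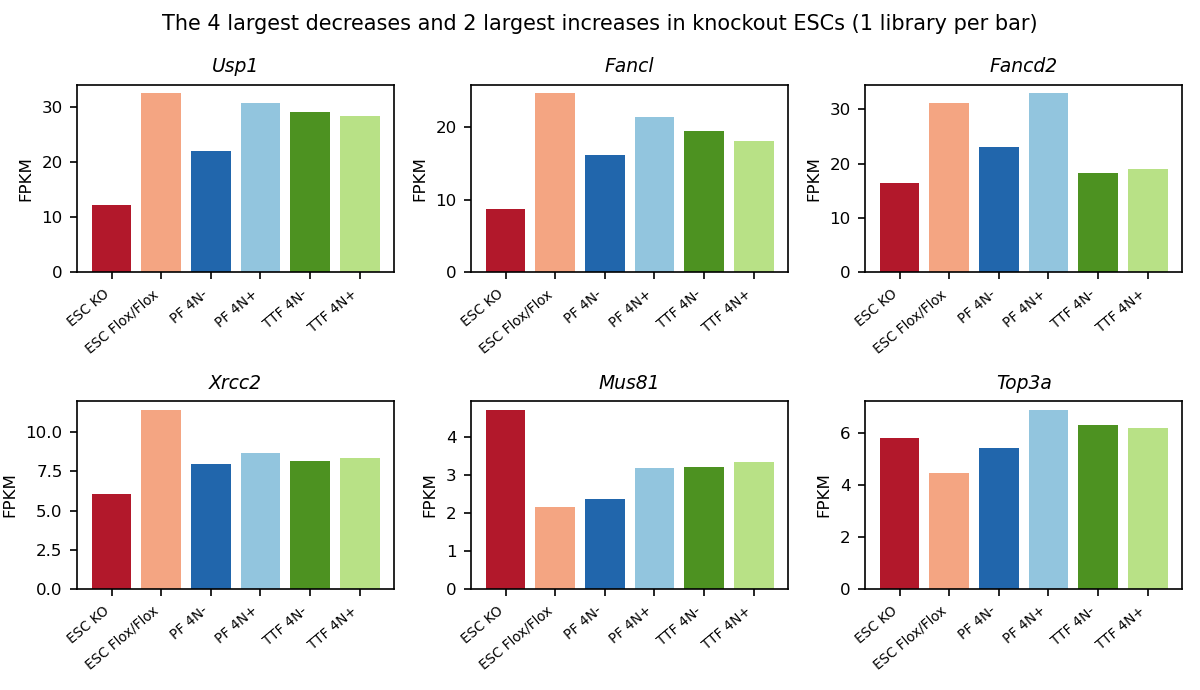
FPKM in each of the 6 libraries (1 bar per library, axes from 0, no error bars because each bar is 1 library) of the 4 genes with the largest decrease and the 2 with the largest increase in knockout ESC. Usp1, Fancl, Fancd2 and Xrcc2 are lowest in knockout ESC, and Mus81 is highest there at 4.72 FPKM.

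Over the whole set, knockout ESC had the lowest of the 6 levels for 24 of the 34 genes, against 31.6% of the 10839 genes measured in all 3 tables. Among genes with a mean of at least 5 FPKM over the 6 libraries, this was so for 20 of the 28 in the set and 39.1% of all. The knockout library also had the lowest effective depth and the lowest total FPKM, 263928, of the 6. In the ESC pair, 17 genes had a ratio larger in size than any of the 34 had in either iPSC pair. These were the 17 genes at least 1.5-fold different. Ratios of that size were more frequent over all genes too. In the ESC pair 15.9% of all genes were that much lower and 17.8% higher. In the PF pair these shares were 4.85% and 1.98%, and in the TTF pair 0.907% and 0.828%. In the 4 iPSC libraries the highest level of a gene was 1.09 to 2.47 times its lowest, with a median of 1.43 times. The ESC ratio was lower for the more abundant of the 34 genes (Spearman rho = -0.53 across 34 genes of the same 2 libraries, which are not independent replicates). The log2(FPKM + 1) scale makes the ratios of genes at low levels smaller in size, which can add to this trend. The 16 genes with an E2F match were all lower in knockout ESC, with a median of -0.57 and a range of -0.73 to -0.09. The 11 genes whose window had no match included 7 that were lower, had a median of -0.54 and ran from -1.40 to 0.85. At least 1.5-fold lower were 7 of the 16 with a match and 5 of the 11 without. Usp1, Fancd2 and Xrcc2, among the largest decreases, had no window. How often all genes with a match were lower was not computed, and the part of E2F in these ratios was not tested.

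Further genes of the same pathways were mostly lower as well. Of 58 listed, 51 were in the tables and 49 were measured, of which 39 were lower in knockout ESC with a median of -0.43. Over all measured genes 51.7% were lower, with a median of -0.03. Among all genes with a mean of at least 5 FPKM, 62.8% were lower, with a median of -0.19. A decrease of at least 1.5-fold was found for 15 of the 49, for 15.9% of all genes and for 21.7% of those with a mean of at least 5 FPKM. An increase of that size was found for 0 of the 49 and for 17.8% of all genes. At least 2-fold lower were 3 of the 49 and 3.72% of all genes. The 3 at least 2-fold lower were Brcc3, a deubiquitinase subunit that works with Brca1 (11.9 FPKM in knockout ESC, against 27.0 FPKM in Flox/Flox ESC), Nbn, a subunit of the break sensor (5.05 FPKM in knockout ESC, against 11.8 FPKM in Flox/Flox ESC), and Rnf168, a ubiquitin ligase that acts on H2A-type histones at breaks (9.16 FPKM in knockout ESC, against 20.3 FPKM in Flox/Flox ESC).

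Cell cycle genes were lower too. All 34 genes of an S-phase list were lower in knockout ESC, with a median of -0.71, and 21 were at least 1.5-fold lower. The 3 largest were Hells (73.7 FPKM in knockout ESC, against 187 FPKM in Flox/Flox ESC), Pola1 (14.97 FPKM in knockout ESC, against 34.6 FPKM in Flox/Flox ESC) and Tyms (7.10 FPKM in knockout ESC, against 15.4 FPKM in Flox/Flox ESC). Of 22 G2/M genes 21 were lower, with a median of -0.54. Over all measured genes 51.7% were lower and 15.9% at least 1.5-fold lower. Among all genes with a mean of at least 5 FPKM these shares were 62.8% and 21.7%, with a median of -0.19. The part of the cell cycle lists, and of the trophoblast, pluripotency, endoderm and fibroblast markers above, in the ratios of the 34 genes was not tested.

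Some of these values are shared with another gene. The tables give 7 of the genes a locus that also names a neighbouring gene, and strand use is not stated, so fragments could be assigned to either. Fancl shares its locus with Vrk2, which had 5.21 FPKM in knockout ESC and 5.69 FPKM in Flox/Flox ESC. For Xrcc3 the partner Klc1 had 21.2 FPKM in knockout ESC and 11.1 FPKM in Flox/Flox ESC, and for Fanci the partner Polg had 14.4 FPKM in knockout ESC and 6.97 FPKM in Flox/Flox ESC. Rad54l, Fanca, Rmi1 and Eme1 share loci with Lrrc41, Zfp276, Hnrnpk and Lrrc59. Over the 27 genes with no shared locus, 24 were lower, the median was -0.58 and 13 were at least 1.5-fold lower.

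The 4N- and 4N+ lines were compared next, first those from peritoneal fibroblasts. In the 4N- PF line 25 of the 34 genes (73.5%) were lower than in the 4N+ PF line, against 68.1% of 11606 measured genes. Their median log2 ratio was -0.13, equal to the -0.13 of all genes. None reached 1.5-fold in either direction, against 4.85% of all genes lower and 1.98% higher by that much. The authors' deposited table called 0.537% of the genes they tested and 0 of the 34. A list of 18 fibroblast and feeder genes summed to 135 FPKM in the 4N- PF line and 266 FPKM in the 4N+ PF line, with a median log2 ratio of -1.02 over 13 measured genes, and its part in the ratios was not tested.

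**Figure D4:**
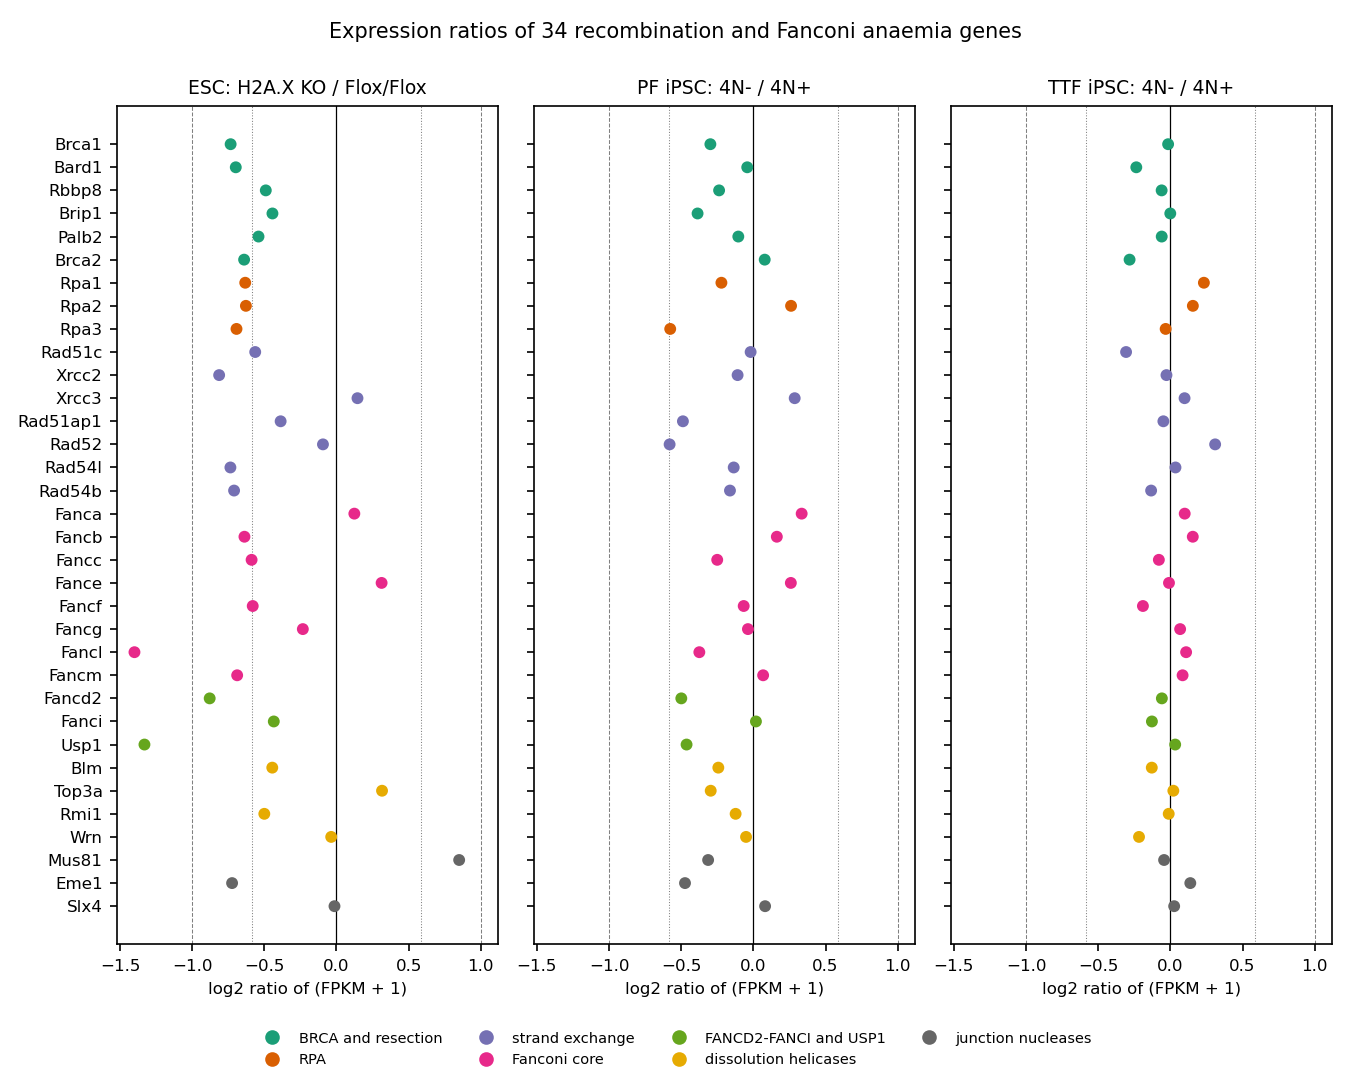
Log2 ratios of (FPKM + 1) of the 34 genes in the 3 pairs, one row per gene and coloured by role, with 0 as a solid line, 1.5-fold as dotted lines and 2-fold as dashed lines. In the ESC pair most points lie left of 0 and Fancl and Usp1 pass the 2-fold line; in both iPSC pairs all points lie between the 1.5-fold lines.

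The 4 lowest genes in the PF pair were Rad52, Rpa3, Fancd2 and Rad51ap1. Rad52 had 4.86 FPKM in the 4N- PF line, against 7.77 FPKM in the 4N+ PF line, a ratio of -0.58. In the 4N- and 4N+ TTF lines it had 5.84 and 4.51 FPKM, and in knockout and Flox/Flox ESC 6.67 and 7.19 FPKM. Rpa3 had 59.8 FPKM in the 4N- PF line, against 89.7 FPKM in the 4N+ PF line, also -0.58. In the 4N- and 4N+ TTF lines it had 56.8 and 58.1 FPKM, so the 4N+ PF line was the one high library for Rpa3. Rad51ap1 had 21.0 FPKM in the 4N- PF line, against 29.8 FPKM in the 4N+ PF line, a ratio of -0.49. Its TTF levels were 20.03 FPKM (4N-) and 20.7 FPKM (4N+), and its ESC levels 17.8 FPKM (knockout) and 23.6 FPKM (Flox/Flox).

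The highest genes in the PF pair were Fanca, Xrcc3, Rpa2 and Fance. Fanca, a core complex subunit, had 20.9 FPKM in the 4N- PF line, against 16.4 FPKM in the 4N+ PF line. It had 9.14 and 8.46 FPKM in the 4N- and 4N+ TTF lines, and 11.5 and 10.4 FPKM in knockout and Flox/Flox ESC. Both PF lines were thus above the other 4 libraries for Fanca. Xrcc3 had 7.98 FPKM in the 4N- PF line, against 6.37 FPKM in the 4N+ PF line, and 5.28 and 4.86 FPKM in the 4N- and 4N+ TTF lines. Rpa2 had 52.5 FPKM in the 4N- PF line, against 43.7 FPKM in the 4N+ PF line. Fance had 10.5 FPKM in the 4N- PF line, against 8.62 FPKM in the 4N+ PF line, and 7.58 and 7.64 FPKM in the 4N- and 4N+ TTF lines.

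The PF ratios followed chromosomes, which were singled out after the values were seen. Over all genes with a mean of at least 5 FPKM, the median log2 ratio was -0.44 on chromosome 6, -0.44 on chromosome 11 and 0.23 on chromosome 17, while the other chromosomes lay between -0.21 and -0.03. The 11 genes of the set on chromosomes 6 and 11 were all lower in the 4N- PF line, with a median of -0.39. They were Rpa3, Rad51ap1, Rad52 and Fancd2 on chromosome 6, and Brca1, Brip1, Rpa1, Rad51c, Fancl, Top3a and Eme1 on chromosome 11. They made up 8 of the 10 lowest ratios. Of the 23 on other chromosomes 14 were lower, with a median of -0.05. Fance, among the 4 highest, is the gene of the set on chromosome 17. After each chromosome's own median was subtracted, 13 of the 34 were lower and their median was 0.06. The part of a chromosome-wide difference in these ratios was not tested.

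**Figure D5:**
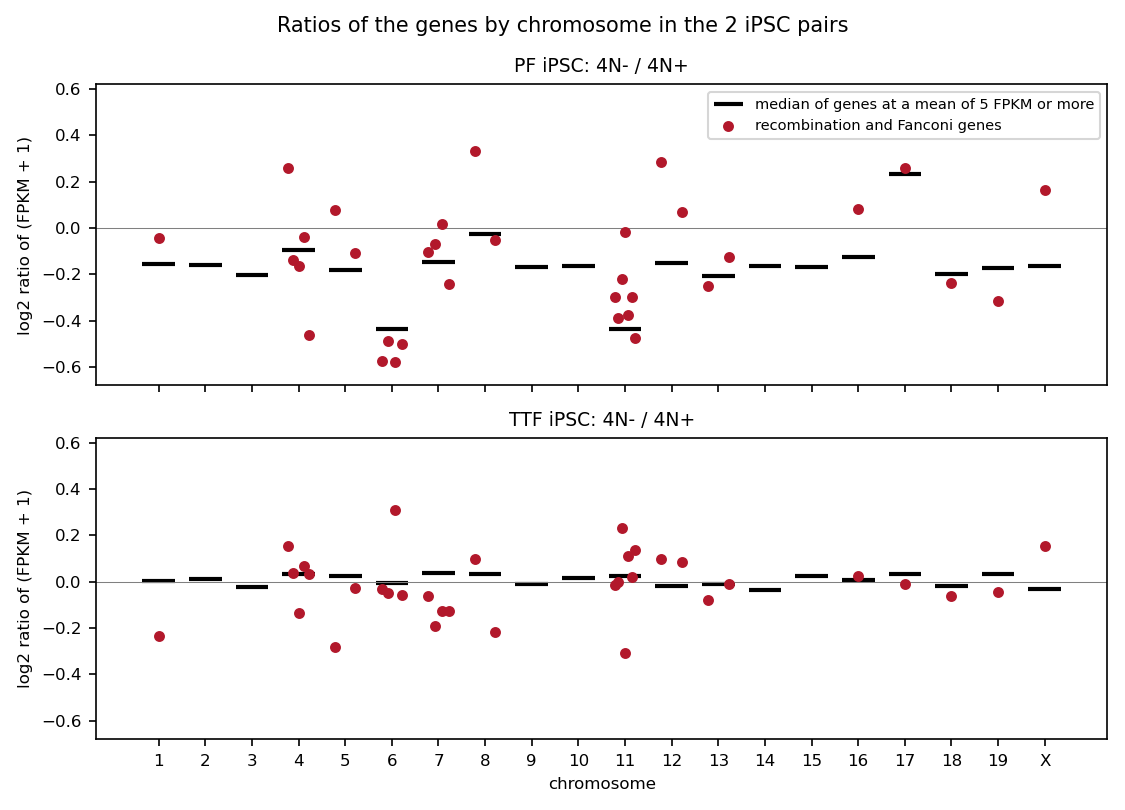
Log2 ratio of (FPKM + 1), 4N- over 4N+, by chromosome in the PF pair (top) and the TTF pair (bottom). Black bars are medians over all genes at a mean of 5 FPKM or more, and red points are the 34 genes; chromosomes 6 and 11 stand at -0.44 in the PF pair, with all 11 red points there below 0, and no chromosome stands apart in the TTF pair.

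The TTF pair showed the smallest differences. In the 4N- TTF line 20 of the 34 genes (58.8%) were lower than in the 4N+ TTF line, against 49.9% of 11354 measured genes, and the median log2 ratio was -0.01. None reached 1.5-fold in either direction, against 0.907% of all genes lower and 0.828% higher by that much. The authors' deposited table called 0.301% of the genes they tested and 0 of the 34. All chromosome medians lay between -0.03 and 0.04.

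The 4 lowest genes in the TTF pair were Rad51c, Brca2, Bard1 and Wrn. Rad51c had 8.02 FPKM in the 4N- TTF line, against 10.2 FPKM in the 4N+ TTF line, and both PF lines were higher at 13.5 FPKM (4N-) and 13.7 FPKM (4N+). Knockout ESC had 7.89 FPKM of Rad51c and Flox/Flox ESC 12.1 FPKM. Brca2 had 9.04 FPKM in the 4N- TTF line, against 11.2 FPKM in the 4N+ TTF line, and 14.3 and 13.5 FPKM in the 4N- and 4N+ PF lines. Bard1 had 9.59 FPKM in the 4N- TTF line, against 11.5 FPKM in the 4N+ TTF line, and 13.7 and 14.1 FPKM in the 4N- and 4N+ PF lines. For these 3 genes the TTF lines stood below the PF lines, across tables that may have been scaled separately. Wrn did so as well, with 2.84 FPKM in the 4N- TTF line, against 3.47 FPKM in the 4N+ TTF line. Its PF levels were 6.30 FPKM (4N-) and 6.56 FPKM (4N+), and its ESC levels 4.99 FPKM (knockout) and 5.15 FPKM (Flox/Flox).

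The highest genes in the TTF pair were Rad52 at 0.31, Rpa1 at 0.23, and Rpa2 and Fancb at 0.16 each. Rpa1 had 99.7 FPKM in the 4N- TTF line, against 84.7 FPKM in the 4N+ TTF line, and 107 and 125 FPKM in the 4N- and 4N+ PF lines. Rpa2 had 67.8 FPKM in the 4N- TTF line, against 60.8 FPKM in the 4N+ TTF line. Fancb, the X-linked core subunit, had 5.56 FPKM in the 4N- TTF line, against 4.89 FPKM in the 4N+ TTF line, and 6.01 and 5.26 FPKM in the 4N- and 4N+ PF lines. It had 4.07 FPKM in knockout ESC, against 6.88 FPKM in Flox/Flox ESC.

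Across both iPSC pairs, 17 of the 34 genes were lower in both 4N- lines, against 33.5% of 10975 genes measured in both tables. Another 6 were higher in both, against 13.8% of those genes, and 11 were on opposite sides. A limma fit of the 4 iPSC libraries, with parental cells as a block, called 0.117% of 11985 genes at a Benjamini-Hochberg adjusted p below 0.05 and 0 of the 34. None of the 34 had an unadjusted p below 0.05 either, against 3.72% of the 11985 genes. The adjusted p was 0.9991 for each of the 34. Fancd2, first by unadjusted p, had an estimate of -0.28 (SE 0.19) and was lower in both pairs. The fit has 1 residual degree of freedom per gene beside a prior of 9.54 estimated over all genes. Of the further pathway genes, 37 of 49 were lower in the 4N- PF line with a median of -0.17. In the 4N- TTF line 26 of 49 were lower with a median of -0.02. Over all measured genes 68.1% were lower in the PF pair (median -0.13) and 49.9% in the TTF pair (median 0.0005). Among genes at a mean of at least 5 FPKM these were 74.4% (median -0.17) and 47.3% (median 0.01). The S-phase list had medians of -0.13 in the PF pair and 0.08 in the TTF pair, and the G2/M list -0.28 and 0.07. In all 3 comparisons 16 of the 34 genes were lower, against 21.8% of the 10839 genes measured in all 3 tables, and 2, Fanca and Xrcc3, were higher, against 8.7%.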

How the data were processed

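Messenger RNA of 6 mouse ESC and iPSC libraries was sequenced from TruSeq libraries, per the labels' protocols. Reads passed through CASAVA and TopHat2 on mm9, per the submitters' processing notes. No quantifier, annotation or strand setting is given in the sources used here. The authors deposited 3 tables of 2 libraries each, with FPKM per library and, per the file headers, the authors' p-value, q-value and call. The deposited log2 fold change and test statistic (a score) were not used as results, and each ratio was taken inside 1 table because the tables may have been scaled apart.

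Values were analysed as log2(FPKM + 1), which understates the change of genes with low levels. A gene was measured at 1 FPKM or more in at least 1 library of its pair. Effective depth was taken from low values of intronless receptor genes, which step by 1 fragment. After division by that step, 98.2% to 100% of 33 to 122 such values in a library were whole to within 0.05. A length offset, and with it the step, was chosen to make this share as large as possible. The share is therefore not an independent check of the depth. The intervals given for Fancf cover counting error only. The iPSC were fitted over all genes with limma 3.58.1 in R 4.3.3 (trend, parental cells as block, Benjamini-Hochberg), tested on simulated data. The parental cell type named in the labels pairs each 4N- line with the 4N+ line of the same origin. PF minus TTF differences of the 4N- and 4N+ lines correlated at r = 0.44 over 11985 genes. Nothing in the labels gives separate cultures of a line, so p-values measure the spread between these samples only. Ratios, medians and figures used Python 3.11.15, pandas 2.3.3 and matplotlib 3.10.9.

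The members and gene lists were chosen with earlier results of these data known. All values were named for members at least 2-fold different, for the 4 largest increases and decreases per table and for any called; other members are given by ratios, ranges and counts, with some levels added after they were seen. Of genes outside the set, H2afx, the 3 largest ESC changes of the S-phase list and the pathway genes at least 2-fold different were named. Marker lists for extraembryonic endoderm and fibroblasts were also summed; they held 715 and 338 FPKM in knockout ESC and 325 and 109 FPKM in Flox/Flox ESC.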

Additional observations from a re-analysis of the deposited data

Results flagged for a closer look

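Rad52 and Rpa1 were on opposite sides of 0 in the PF and TTF pairs, by at least 0.2 on the log2(FPKM + 1) scale in each. Rad52 was at -0.58 in the PF pair and 0.31 in the TTF pair, a difference of -0.89. Rpa1 was at -0.22 in the PF pair and 0.23 in the TTF pair, a difference of -0.45. Each pair is 1 line of each label, so this difference between the pairs was not tested. Both genes lie on chromosomes whose genes had a median of -0.44 in the PF pair, chromosome 6 for Rad52 and chromosome 11 for Rpa1. The part of that shift in the difference was not tested.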

How the results depend on the processing

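Of 65 recomputed values, 57 stayed close to the reported value and 8 moved. Close meant a count within 1.5 times, or a median within its 95% interval over the genes. That interval treats the 34 genes as independent and holds their spread within 1 pair of libraries, not the error of the comparison. All 34 genes reached 1 FPKM in every library, so dropping the filter on low values could not change their ratios. Those recomputed values are among the 57 and check nothing. With the ESC pair centred on the median of all genes, 5 genes were at least 1.5-fold different, against 17 as reported, and the median was -0.39, against -0.57. With each chromosome's median subtracted, an alternative chosen after seeing the data, these became 7 genes and -0.42. Leaving out genes that share a locus, also chosen afterwards, left 1 gene at least 2-fold different, Usp1, against 2, because Fancl is among those left out. In the PF pair a pseudocount of 0.1 FPKM put 1 gene at 1.5-fold or more, against 0. The PF median of -0.13 became 0.037 centred on all genes and 0.059 centred by chromosome, so its sign rests on the scaling. The limma fit called 0 of the 34 genes under every alternative run, including the fit with no replicate block (0 genes, with 3 called over all genes against 14) and with each library left out in turn, which compared across tables and assumes that a lone library varies like the others. Calls over all genes ran between 0 (no filter on low values) and 63 (mean of at least 5 FPKM). In the leave-one-out fits they ran from 1 to 17. With 1 library per condition and table no ESC ratio has a replicate check.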
